A study of Homo sapiens with 20 samples.

Results

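Apoptosis regulators and death receptors were followed through POLR1D silencing in colorectal cancer cells. They are 10 genes, chosen by name: TNFRSF10A, TNFRSF10B, PMAIP1, BCL2L11, BCL2L1, MCL1, BAX, BAK1, BID and XIAP. Each was found by its symbol as 1 row in all 20 libraries, so the 10 members are 10 of 36346 gene names measured. All 10 passed the filter on low values in both cell lines.

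RNA was sequenced 72 h after siRNA transfection of HT29 and SW480, established human colorectal cancer lines. HT29 carries a focal amplification around POLR1D and SW480 a gain of the whole of chromosome 13, where POLR1D lies. HT29 gave 4 libraries with the control siRNA (SCR), 2 with siPOLR1D2 and 2 with siPOLR1D3. SW480 gave 6, 3 and 3. Transfection was transient, no other agent is listed, and libraries with siPOLR1D2 or siPOLR1D3 are together called silenced. The study reported lower cell viability after silencing, which raises the question of how genes that start or hold back cell death stood at that time. Nothing in the labels says that replicates came from separate cultures, so p values measure the spread between these libraries, which may be technical.

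Cell death by apoptosis is reached by an outer and an inner route. On the outer route the ligand TRAIL binds the death receptors that TNFRSF10A and TNFRSF10B encode, and caspase 8 is activated on their tails. On the inner route the BH3-only proteins, among them NOXA (PMAIP1) and BIM (BCL2L11), bind the guards BCL-XL (BCL2L1) and MCL-1 (MCL1), the effectors BAX and BAK1 then open the outer mitochondrial membrane, BID carries the signal of the outer route to the inner one, and XIAP blocks the caspases that follow.

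In SW480, 2 of the 10 members changed after silencing. TNFRSF10B fell and BCL2L11 rose, by limma with the Benjamini-Hochberg adjusted p under 0.05 over all genes tested. The background was 6.73% of 15019 genes, 367 higher and 644 lower. An unadjusted p under 0.05 was reached by 6 members, where 23.2% of all genes reached it. In HT29 no member passed, against a background of 0% of 13274 genes, and 1 member had an unadjusted p under 0.05 where 10.7% of all genes did. The median log2 fold change of the members was -0.20 in SW480, beside 0.01 over all genes, and 0.07 in HT29, beside 0.00019. Fold changes are of log2(value + 1), a scale that understates the change of low genes.

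The labels were checked on POLR1D, which is built into both RNA polymerase I and RNA polymerase III and is the target of both siRNAs. In SW480 it was at 1829 to 2599 normalized read counts in the SCR libraries, with a median of 2030, and at 843 to 1336 in the silenced ones, with a median of 976. In HT29 it was at 4433 to 6036 in SCR and at 2550 to 3492 in silenced libraries. The groups did not overlap in either line. Silencing gave a log2 fold change of -1.04 ± 0.13 (SE, limma adjusted p = 0.00099) in SW480 and -0.72 ± 0.14 (limma adjusted p = 0.355) in HT29. Summed values ran from 17619830 to 22958216 per library. Of the colorectal epithelial markers 8 of 8 passed the filter in SW480 and 7 of 8 in HT29, where CDX2 was between 0 and 7.91. KRT20 passed it in SW480 only through the silenced libraries and was at 1.73 to 11.2 in SCR there. Of 8 fibroblast, immune and endothelial markers, summed, HT29 libraries held 68.7 to 180 and SW480 libraries 189 to 841. DCN, PTPRC, CD3E and PECAM1 stayed at or below 21.2 in every library and below the filter in both lines. The other 4 passed it in SW480, with COL1A1 up to 700, CD68 up to 161, VWF up to 130 and COL1A2 up to 41.5. In HT29 COL1A1 and CD68 passed it. None of these markers changed with silencing at an adjusted p under 0.05, but at an unadjusted p under 0.05 stood COL1A1 in HT29 (1.17, limma adjusted p = 0.408) and CD68 in SW480 (-0.58, limma adjusted p = 0.160). Their part in the members' changes was not tested.

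Libraries stood apart within both lines. In HT29, the first principal component, with 43.3% of the variance, set SCR 1 far from the rest. In SW480 it took 42% and put SCR 1 to 3 with siPOLR1D2 1 and 2 on one side, and SCR 4 to 6 with siPOLR1D2 3 and all siPOLR1D3 libraries on the other. These 2 sides were read from the data and are not named by the labels. Results are given within them where they move. Since the sides come from the same values that are tested, p values within them or with the side as a covariate can be too small.

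**Figure D1:**
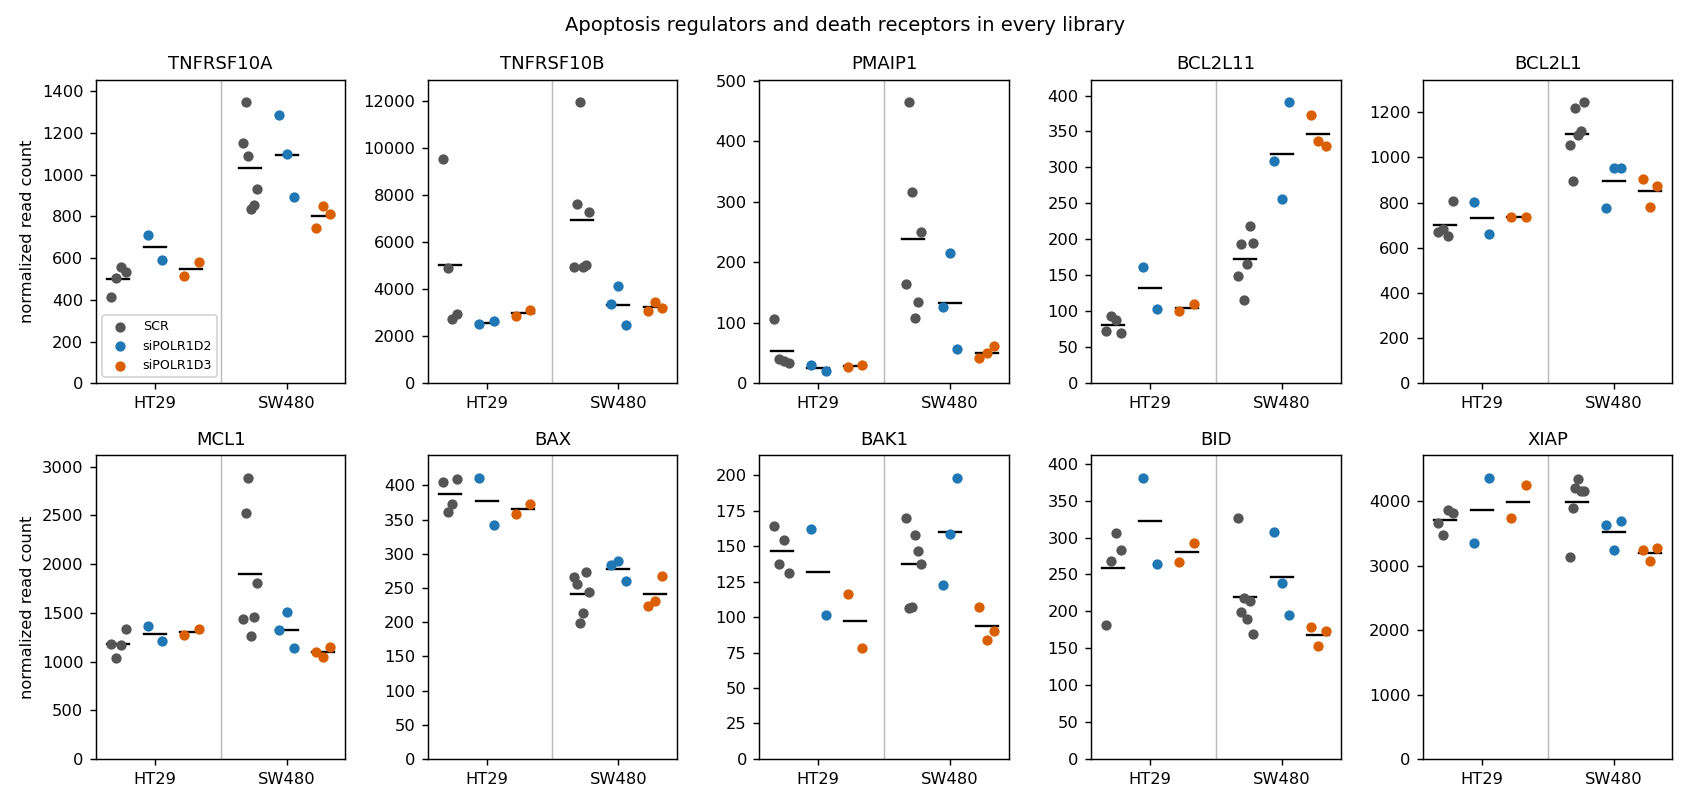
Normalized read count of each member in every library, 1 panel per gene with its own axis from 0. Points are libraries (grey SCR, blue siPOLR1D2, orange siPOLR1D3), lines are group means, and HT29 stands left of SW480. TNFRSF10B and BCL2L11 separate completely in SW480, while a single HT29 SCR library, at 9536 for TNFRSF10B and 105 for PMAIP1, sits far above the others.

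TNFRSF10B, a TRAIL receptor known to be induced under endoplasmic reticulum stress, fell in SW480. It lies at chr8:23020133-23069179 on the minus strand in GENCODE, build GRCh38, and overlaps RHOBTB2 on the other strand. Whether the counting used strand is not given in the sources used here, and without it reads of overlapping genes cannot be told apart. All members except PMAIP1 and BAX overlap another annotated gene, and MCL1, BID and XIAP overlap a gene on their own strand. TNFRSF10A, described after it, lies on the same strand at chr8:23190452-23225126 and overlaps TNFRSF10A-AS1 on the other one. In SW480 TNFRSF10B was at 4928, 6158 and 11952 (lowest, median and highest) in SCR, and at 2472, 3273 and 4145 in silenced libraries. Every silenced library was below every SCR library. In RNA from whole cultures, less RNA per cell and fewer cells that hold it cannot be told apart. The difference was a log2 fold change of -1.02 ± 0.21 (SE, limma adjusted p = 0.0136), a 2.02-fold lower value. The exact permutation test gave p = 0.00216, 2-sided, the smallest that 6 against 6 allows. Within the second side of the first component TNFRSF10B was at -0.90 (limma adjusted p = 0.00646, 3 against 4 libraries), and within the first at -1.04, which did not pass (limma adjusted p = 0.379, 3 against 2). Non-overlap was found in 2 of 10 members in SW480, where 4.57% of all genes showed it.

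In HT29 the SCR libraries held TNFRSF10B at 9536, 4888, 2730 and 2957, and the silenced ones at 2506 and 2637 (siPOLR1D2) and 2840 and 3102 (siPOLR1D3). The 2 lower SCR libraries lay among the silenced ones. Over all 8 libraries the log2 fold change was -0.67 ± 0.34 (limma adjusted p = 0.499). Without SCR 1, the highest library, it was -0.30. SCR 1 also stood apart on the first component, and its part in the result was not tested.

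TNFRSF10A, the other TRAIL receptor that signals death, did not pass the test in either line. In SW480 it was at 838, 1008 and 1348 (lowest, median, highest) in SCR and at 743, 870 and 1287 in silenced libraries, and the groups overlapped widely. The log2 fold change was -0.13 (95% interval -0.47 to 0.20). In HT29 SCR gave 414, 505, 555 and 532, siPOLR1D2 gave 713 and 593, and siPOLR1D3 gave 513 and 580. There 3 of 4 silenced libraries were above every SCR library, and the log2 fold change was 0.26 (95% interval -0.06 to 0.58, limma adjusted p = 0.528).

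Of the BH3-only genes BCL2L11 rose in SW480, while PMAIP1 fell with siPOLR1D3 and did not pass with both siRNAs pooled. Their promoter windows, from 250 bases before to 50 after a RefSeq start (GRCh38.p14), are shown because these 2 genes had the highest and the lowest log2 fold change of the members in SW480. Both are on the plus strand, BCL2L11 at chr2:111120664-111120963 and PMAIP1 at chr18:59899746-59900045. Windows were given for 7 of the 10 members, and not for TNFRSF10A, TNFRSF10B or MCL1. Capitals mark GTAAACA, the forkhead motif, in BCL2L11, starting 223 bases before the start, and CGTCA, which is TGACG read on the other strand, the core of the cAMP response element, in PMAIP1, starting 55 bases before it.
BCL2L11: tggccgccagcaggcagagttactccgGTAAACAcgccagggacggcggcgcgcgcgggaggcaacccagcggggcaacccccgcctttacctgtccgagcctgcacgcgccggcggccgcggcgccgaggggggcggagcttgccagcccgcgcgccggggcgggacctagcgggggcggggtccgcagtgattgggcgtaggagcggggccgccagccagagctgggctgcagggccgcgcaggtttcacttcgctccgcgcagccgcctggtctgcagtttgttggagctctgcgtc
PMAIP1: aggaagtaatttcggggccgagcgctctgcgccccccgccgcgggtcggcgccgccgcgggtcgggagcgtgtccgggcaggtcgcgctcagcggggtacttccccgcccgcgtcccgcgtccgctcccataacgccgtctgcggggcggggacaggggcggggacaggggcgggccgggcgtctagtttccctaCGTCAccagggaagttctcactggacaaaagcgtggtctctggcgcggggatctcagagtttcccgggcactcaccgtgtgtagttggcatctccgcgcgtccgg

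Motifs were searched on both strands. GTAAACA occurred in 3.42% of 35116 promoter windows and, among members, in the BCL2L11 window alone. TGACG occurred in 24.6% of windows, and also in windows of BAX, BCL2L1 and XIAP. The whole element TGACGTCA, of which TGACG is a part, was found in 1.85% of windows and in no window of a member. The same held for TGATGNAA, the CHOP and ATF4 composite motif, found in 3.62%. TNFRSF10A, TNFRSF10B and MCL1 had no window, so their promoters were not searched for any motif. A match describes letters only and is no evidence of a bound factor.

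BCL2L11 encodes BIM, which binds all the main BCL2 guards. Its GENCODE gene, chr2:111119378-111168447, overlaps the antisense MIR4435-2HG. In SW480 it was at 116, 180 and 218 (lowest, median, highest) in SCR, and at 256, 333 and 391 in silenced libraries. Every silenced library was above every SCR library. Its log2 fold change was 0.96 ± 0.17 (SE, limma adjusted p = 0.00678), or 1.94-fold, with an exact permutation p of 0.00216, the smallest possible. Within the second side it was 0.89 (limma adjusted p = 0.00512), and within the first 0.91, which did not pass (limma adjusted p = 0.375, 3 against 2).

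In HT29, BCL2L11 was at 72.8, 93.3, 87.6 and 70.5 in SCR, at 161 and 103 with siPOLR1D2 and at 100 and 110 with siPOLR1D3. The groups did not overlap here either. Silencing gave a log2 fold change of 0.53 ± 0.21 (limma adjusted p = 0.437), and the exact permutation test gave p = 0.0286, the smallest that 4 against 4 allows. Non-overlap was seen in 2 of 10 members in HT29, BCL2L11 and PMAIP1, where 6.89% of all genes showed it. The siPOLR1D2 1 library, at 161, was well above the other 3 silenced libraries, and the log2 fold change was between 0.37 and 0.60 when any library was left out.

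PMAIP1 encodes NOXA, which binds MCL-1 above other guards. It lies at chr18:59899948-59904306 on the plus strand, with no overlapping gene. In SW480 it was at 108, 206 and 464 (lowest, median, highest) in SCR and at 42.0, 58.8 and 215 in silenced libraries. The libraries siPOLR1D2 2, at 215, and siPOLR1D2 1, at 125, lay within the SCR range, and the other 4 silenced libraries were below it. The log2 fold change was -1.46 ± 0.43 (limma adjusted p = 0.0601), which did not pass, and the exact permutation p was 0.0195. Without siPOLR1D2 2 it was -1.75 (limma adjusted p = 0.0207). Of 12 fits that each left out 1 library only this 1 passed (limma adjusted p up to 0.129). With the side as a covariate the log2 fold change was -1.25 (limma adjusted p = 0.0127). Within the second side it was -1.55 (limma adjusted p = 0.0087), and within the first -0.81 (limma adjusted p = 0.599, 3 against 2). The silenced libraries of the second side are siPOLR1D2 3 and all siPOLR1D3 ones.

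In HT29 the PMAIP1 values were low, at 105, 39.5, 36.8 and 33.2 in SCR, at 30.4 and 20.05 with siPOLR1D2 and at 26.9 and 30.2 with siPOLR1D3. Every silenced library was below every SCR library, but 3 of the SCR libraries were close to them and SCR 1 was not. It had a log2 fold change of -0.82 ± 0.38 (limma adjusted p = 0.480, exact permutation p = 0.0286), and -0.44 without SCR 1.

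The guards BCL2L1 and MCL1 were lower in SW480 at an unadjusted p under 0.05, which 23.2% of all genes reached there. Neither passed the adjusted test. MCL1 (chr1:150574551-150579738, minus strand), a short-lived guard, was at 1264, 1632 and 2885 (lowest, median, highest) in SCR and at 1044, 1144 and 1506 in silenced libraries. All 6 silenced libraries were below the SCR median and 4 of them below every SCR library. The log2 fold change was -0.59 ± 0.19 (limma adjusted p = 0.084, exact permutation p = 0.0152). With the side of the first component as a covariate it was -0.51 (limma adjusted p = 0.0395). Within the second side it was -0.43 (limma adjusted p = 0.0526), and within the first -0.63 (limma adjusted p = 0.539). BCL2L1 (chr20:31664452-31723989, minus strand), which encodes BCL-XL, was at 894, 1109 and 1244 in SCR and at 777, 888 and 955 in silenced libraries. Only SCR 2, at 894, fell into the silenced range. Its log2 fold change was -0.33 ± 0.10 (limma adjusted p = 0.068, exact permutation p = 0.00866). Without SCR 2 it was -0.39 (limma adjusted p = 0.0366). Of 12 fits that each left out 1 library only this 1 passed (limma adjusted p up to 0.141). With the side as a covariate the log2 fold change was -0.35 (limma adjusted p = 0.0366). Within the second side it was -0.40 (limma adjusted p = 0.0442), and within the first -0.28 (limma adjusted p = 0.681).

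Neither guard passed the test in HT29. MCL1 was at 1175, 1037, 1169 and 1331 in SCR, at 1362 and 1206 with siPOLR1D2 and at 1268 and 1330 with siPOLR1D3, a log2 fold change of 0.14 (95% interval -0.10 to 0.38). BCL2L1 was at 668, 685, 651 and 806 in SCR, at 802 and 663 with siPOLR1D2, and at 735 in both siPOLR1D3 libraries, a log2 fold change of 0.06 (95% interval -0.19 to 0.32). Groups of both genes overlapped.

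BAX and BAK1, the effectors, had no change that passed the test. BAX (chr19:48954815-48961798, plus strand) was at 198 to 273 in SCR and 223 to 289 in silenced SW480 libraries, and at 361 to 409 and 342 to 411 in HT29. Its log2 fold change was 0.10 (95% interval -0.17 to 0.37) in SW480 and -0.06 (95% interval -0.33 to 0.20) in HT29. BAK1 (chr6:33572547-33580293, minus strand) varied more. In SW480 it was at 107 to 170 in SCR, at 123, 159 and 198 with siPOLR1D2 and at 107, 83.6 and 90.6 with siPOLR1D3, and the means of 160 and 93.7 lay on either side of the SCR mean of 138. In HT29 it was at 164, 137, 155 and 131 in SCR, at 162 and 102 with siPOLR1D2 and at 116 and 78.2 with siPOLR1D3. The log2 fold change was -0.16 (95% interval -0.64 to 0.32) in SW480 and -0.40 (95% interval -0.91 to 0.11) in HT29.

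BID, which links the routes once caspase 8 has cut it, was at 170 to 327 in SCR and 152 to 308 in silenced SW480 libraries, a log2 fold change of -0.09 (95% interval -0.51 to 0.33). Its gene is at chr22:17734138-17774770 on the minus strand. In HT29 it was at 181 to 306 in SCR and at 264 to 381 in silenced libraries, with 0.23 (95% interval -0.22 to 0.67). The groups overlapped in both lines.

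XIAP (chrX:123859724-123913979, plus strand) was at 3139, 4159 and 4354 (lowest, median, highest) in SCR and at 3072, 3266 and 3695 in silenced SW480 libraries. Apart from SCR 1, at 3139, every SCR library was above every silenced one. The log2 fold change was -0.24 ± 0.09 (limma adjusted p = 0.141, exact permutation p = 0.0216). Without SCR 1 it was -0.31 (limma adjusted p = 0.0283). Of 12 fits that each left out 1 library only this 1 passed (limma adjusted p up to 0.239). With the side as a covariate the log2 fold change was -0.25 (limma adjusted p = 0.084). Within the second side it was -0.35 (limma adjusted p = 0.0365), and within the first -0.12 (limma adjusted p = 0.861). In HT29 XIAP was at 3480 to 3873 in SCR and 3358 to 4365 in silenced libraries, with a log2 fold change of 0.08 (95% interval -0.17 to 0.32).

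**Figure D2:**
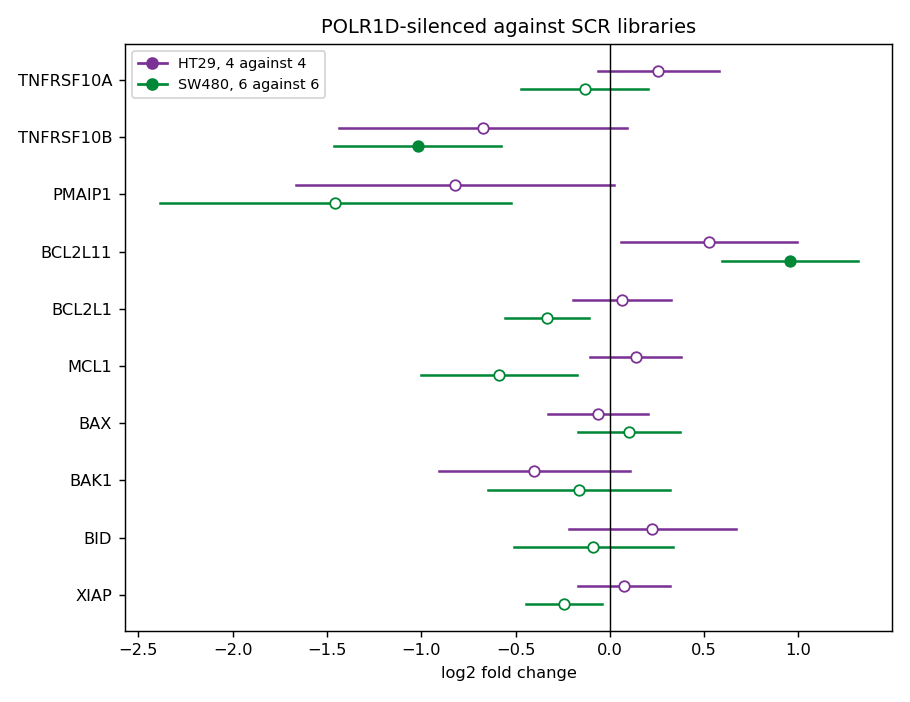
Log2 fold change of each member, silenced minus SCR, in HT29 (purple, 4 against 4 libraries) and SW480 (green, 6 against 6). Points are limma estimates, bars are 95% intervals, and filled points passed an adjusted p of 0.05, which TNFRSF10B at -1.02 and BCL2L11 at 0.96 did in SW480 and no member did in HT29.

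The siRNAs were also compared with SCR one by one, in a fit of 3 groups. In SW480, siPOLR1D2 changed 2 of 10 members (background 8.16% of genes) and siPOLR1D3 changed 3 of 10 (background 6.6%). TNFRSF10B had a log2 fold change of -1.02 ± 0.26 with each, with limma adjusted p of 0.0325 for siPOLR1D2 and 0.0372 for siPOLR1D3. BCL2L11 rose by 0.88 ± 0.20 with siPOLR1D2 (limma adjusted p = 0.0206) and by 1.03 ± 0.20 with siPOLR1D3 (limma adjusted p = 0.0135). PMAIP1 fell by 2.05 ± 0.47 with siPOLR1D3 (limma adjusted p = 0.0245), a 4.13-fold lower value, and its change with siPOLR1D2 was -0.86 ± 0.47 (limma adjusted p = 0.277). The means of PMAIP1 were 239 in SCR (SD 135, n = 6), 132 with siPOLR1D2 (SD 79.2, n = 3) and 50.7 with siPOLR1D3 (SD 9.58, n = 3).

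These calls rested on few libraries and on the fit. With siPOLR1D2, neither TNFRSF10B nor BCL2L11 passed when the siPOLR1D3 libraries were left out of the fit (limma adjusted p of 0.0771 and 0.0597) or when SCR 1 to 3 were the only controls (limma adjusted p of 0.193 and 0.191). The count for siPOLR1D2 was 0 without siPOLR1D2 1 or without siPOLR1D2 3, and 1 without SCR 6 or without siPOLR1D3 3. The count for siPOLR1D3 was 0 without any one of its 3 libraries. TNFRSF10B with siPOLR1D3 also lost its call without SCR 2, SCR 6 or siPOLR1D2 1 (limma adjusted p of 0.0602, 0.0645 and 0.052), while XIAP passed without SCR 1 (-0.38, limma adjusted p = 0.0178) and BCL2L1 without SCR 2 (-0.43, limma adjusted p = 0.0496). In HT29 no member passed with siPOLR1D2 or siPOLR1D3, and no gene did (background 0% for each).

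The siRNAs could differ in effect, so siPOLR1D3 was set against siPOLR1D2 directly. In SW480 no member differed, with a background of 3.32% of genes, and 4 members had an unadjusted p under 0.05 where 21.8% of all genes did. BAK1 was lower with siPOLR1D3 by a log2 difference of -0.75 (95% interval -1.28 to -0.21, limma adjusted p = 0.109). The differences were -1.19 for PMAIP1 (95% interval -2.36 to -0.01), -0.53 for BID and -0.43 for TNFRSF10A. TNFRSF10B differed by -0.0022 (95% interval -0.65 to 0.65) and BCL2L11 by 0.14 (95% interval -0.37 to 0.65). All 3 siPOLR1D3 libraries and 1 of 3 siPOLR1D2 libraries lay on the second side of the first component, so siRNA and side cannot be told apart for most libraries. In HT29 no member differed between the siRNAs, and the background was 0%.

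**Figure D3:**
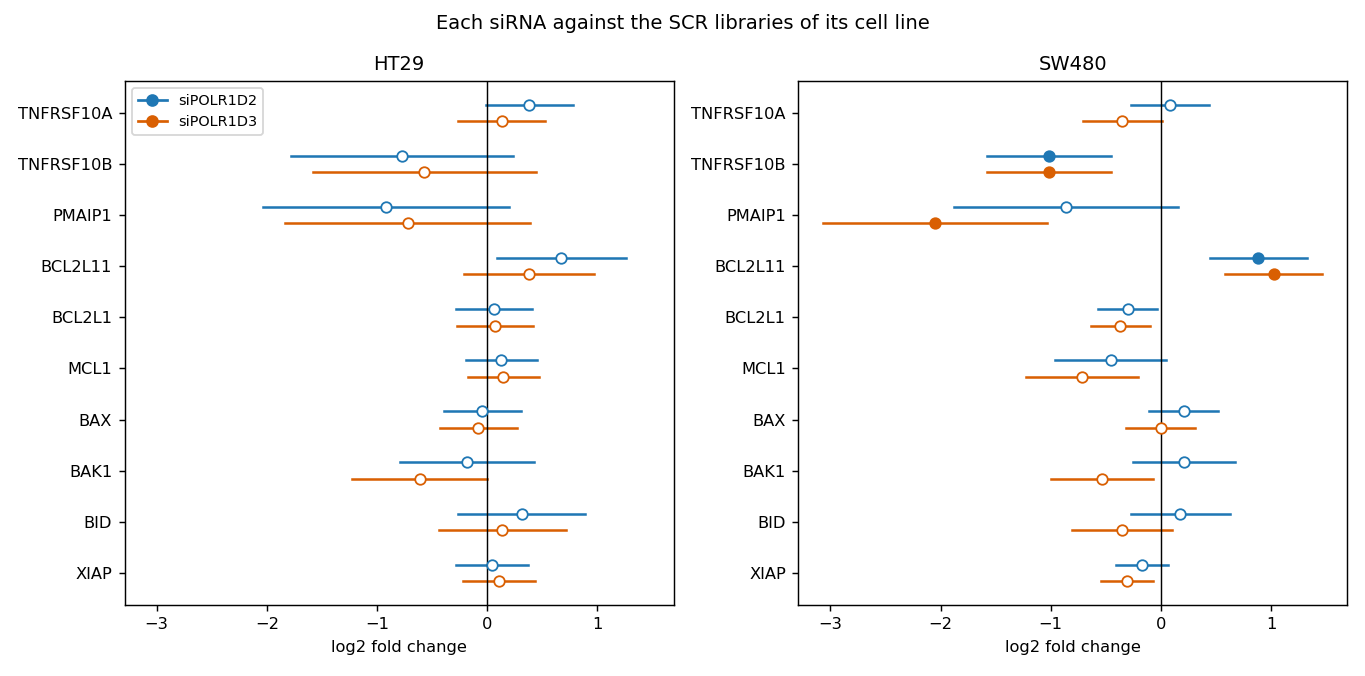
Log2 fold change of each member against the SCR libraries of its line, for siPOLR1D2 (blue) and siPOLR1D3 (orange), with 95% intervals and filled points at a limma adjusted p under 0.05. In SW480 TNFRSF10B is at -1.02 with each siRNA, while BAK1 is at 0.21 with siPOLR1D2 and at -0.54 with siPOLR1D3.

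Whether the lines responded differently was tested as an interaction over all 20 libraries. No member passed, against a background of 0.037% of 16203 genes, of which 6 passed. The largest difference relative to its error was that of MCL1, whose change in SW480 was lower than in HT29 by a log2 difference of -0.72 (95% interval -1.27 to -0.18, limma adjusted p = 0.402). BCL2L1 differed by -0.40 (limma adjusted p = 0.465) and XIAP by -0.32 (limma adjusted p = 0.572). The change of TNFRSF10B differed by -0.34 (95% interval -1.18 to 0.49) and that of BCL2L11 by 0.43 (95% interval -0.13 to 0.98), so the calls made in SW480 alone do not show a difference between lines. Levels were not compared across lines, since each line was normalized on its own.

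Few other genes of the pathway passed the test. Of 38 listed genes of apoptosis beside the members, 32 passed the filter in SW480, of which 0 rose and 2 fell, or 6.25%, close to the background. In HT29 30 were tested and none passed. BNIP3L, a mitochondrial BH3 protein also known for mitophagy, fell by 0.72 ± 0.18 on the log2 scale in SW480 (limma adjusted p = 0.03). BIRC3, an inhibitor of apoptosis protein of the TNF receptor complex, fell by 1.22 ± 0.31 (limma adjusted p = 0.0354). They were at -0.40 and 0.25 in HT29, where neither passed.

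In the death receptor arm 0 of 11 tested genes passed in SW480 and 0 of 10 in HT29, with median log2 fold changes of -0.11 and -0.03. TNFRSF1A, the main TNF receptor, was at -0.59 (limma adjusted p = 0.0874) and CFLAR, a brake on caspase 8, at -0.49 (limma adjusted p = 0.136) in SW480. CASP10, a caspase of the same complex, was at -0.70 and TNFRSF10D, a TRAIL receptor that does not signal death, at 0.67 in HT29 (limma adjusted p = 0.374 and 0.431). Among the other guards BCL2L2 alone passed the filter, at -0.11 in SW480 and -0.72 in HT29 (limma adjusted p = 0.824 and 0.531). BCL2, BCL2A1 and BCL2L10 were below it in both lines.

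Of the other BH3-only genes and effectors 7 of 8 were tested in SW480 and 6 of 8 in HT29. BOK, an effector, was at -0.93 in HT29 (limma adjusted p = 0.595). Of the inhibitors of apoptosis and their antagonists 6 of 7 were tested in each line. BIRC5, or survivin, was at 0.46 and BIRC2 at -0.29 in HT29 (limma adjusted p = 0.492 and 0.518). Of the apoptosome and caspase genes 7 of 7 were tested and none passed in either line. APAF1, the apoptosome scaffold, was at -0.30 (limma adjusted p = 0.224) in SW480, while CASP6 and APAF1 had the smallest p in HT29, at 0.42 and 0.21. Of 5 genes that act on MCL1 or XIAP protein none passed. FBXW7, a ubiquitin ligase subunit for MCL-1, was at -0.36 and -0.37 in SW480 and HT29 (limma adjusted p = 0.149 and 0.448), USP9X, which removes ubiquitin from MCL-1, at -0.24 in SW480 and XAF1, a XIAP antagonist, at -1.62 in HT29 (limma adjusted p = 0.370 and 0.562).

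**Figure D4:**
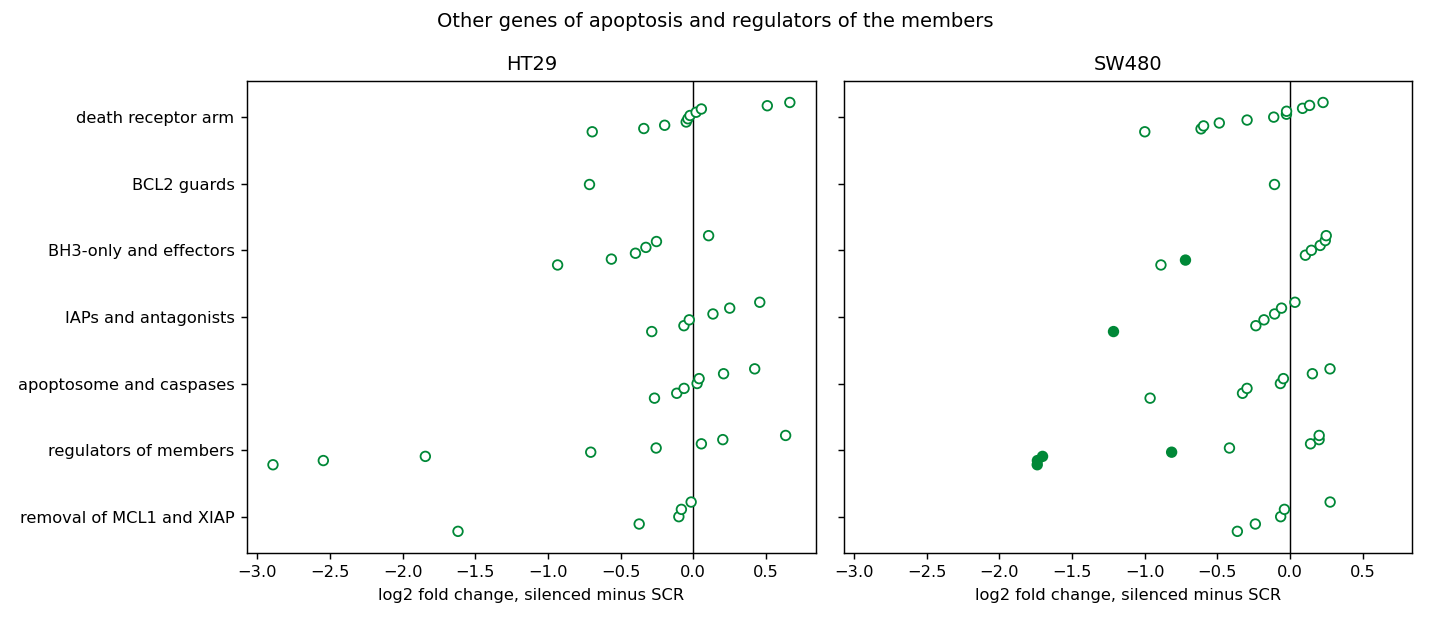
Log2 fold change of every tested gene of 7 lists, silenced minus SCR, in HT29 and SW480. Each point is a gene, filled at a limma adjusted p under 0.05. In SW480, where 6.73% of all genes passed, 6 points are filled, 4 of them among the regulators, and in HT29 none is.

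Transcription factors and stress genes known to act on the members were taken as a list of 8. In SW480 4 of 8 fell and 0 rose, where 6.73% of all 15019 genes passed, 644 of them lower. The list was written with earlier results of these data known, so this count is no test of the list. ATF4, the factor of the integrated stress response, fell by 0.81 ± 0.14 on the log2 scale (limma adjusted p = 0.00649). DDIT3, or CHOP, a factor known to induce TNFRSF10B, fell by 1.74 ± 0.40 (limma adjusted p = 0.0224), TRIB3 by 1.70 ± 0.37 (limma adjusted p = 0.0177) and ATF3 by 1.74 ± 0.49 (limma adjusted p = 0.0486). ATF4, DDIT3 and ATF3 are among the genes the study picked from these same libraries, so their direction is not independent evidence. FOXO3, which is known to induce BCL2L11, MYC and E2F1 did not pass, at 0.14, -0.42 and 0.20. In HT29 none of the 8 passed. ATF4 was at -0.71, ATF3 at -2.89, DDIT3 at -2.55 and TRIB3 at -1.84 (limma adjusted p between 0.355 and 0.43).

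TNFRSF10B and DDIT3 were high in the same libraries. In HT29, DDIT3 was at 2061 and 1175 in SCR 1 and 2, the libraries with TNFRSF10B at 9536 and 4888, and at 102 and 231 in SCR 3 and 4. The silenced libraries held it at 77.3 to 94.1. In SW480 the 3 SCR libraries with the highest TNFRSF10B, at 7292, 7604 and 11952, had DDIT3 at 767, 1309 and 1256, and the other 3 at 228 to 428. Pearson's r of log2 values was 0.92 over 12 SW480 libraries, 0.87 over the 6 SCR libraries alone and 0.93 over 8 HT29 libraries. For PMAIP1 and DDIT3 it was 0.89, 0.85 and 0.83. The points share the 2 sides, the SCR library that stands apart and the groups themselves, and these values are descriptions.

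**Figure D5:**
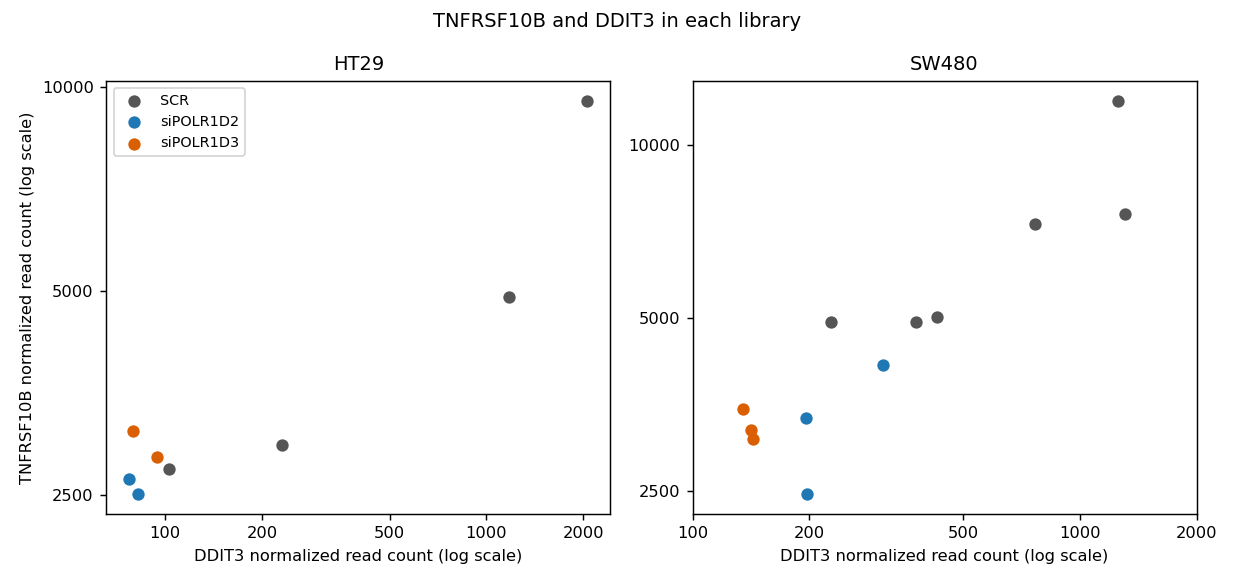
Normalized read count of TNFRSF10B against DDIT3 in each library of HT29 and SW480, both axes on a log scale, with SCR in grey, siPOLR1D2 in blue and siPOLR1D3 in orange. In HT29, SCR 3 and 4, with DDIT3 at 102 and 231, sit near the silenced libraries, and in SW480 all SCR libraries lie above the silenced ones in TNFRSF10B.

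Among the members themselves, the level of MCL1 followed that of TNFRSF10B over the SW480 libraries, with r of 0.92, and of 0.94 within the 6 SCR libraries, but -0.51 in HT29. PMAIP1 followed it with r of 0.84 in SW480 and 0.92 in HT29, and BCL2L11 ran against it with -0.89 and -0.52. In SW480 SCR the highest MCL1 and TNFRSF10B were both in SCR 3, at 2885 and 11952, and the highest PMAIP1 was in SCR 2, at 464. The spread of the SCR libraries was wide for these 3 genes, with the highest over the lowest library at 2.28 for MCL1, 2.43 for TNFRSF10B and 4.32 for PMAIP1, beside 1.38 for BAX and 1.39 for BCL2L1.

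Over all genes tested, the 5 most like TNFRSF10B across the 12 SW480 libraries were LETM2, NDE1, CDKN1B, EDEM1 and AARS, with r from 0.98 to 0.96. Over the 8 HT29 libraries EDEM1 and AARS had r of 0.98 and 0.97, CDKN1B 0.75, and LETM2 and NDE1 -0.14 and -0.43. Among the 5 most like PMAIP1 were SH3RF2, SLC38A2, FAM107B and MAP3K20, with r from 0.98 to 0.97 in SW480. In HT29 SLC38A2 and FAM107B had r of 0.73 and 0.69, and MAP3K20 and SH3RF2 -0.51 and -0.82. AARS and SLC38A2 are also among the genes the study picked from these libraries. All points share sides and groups, so these are descriptions.

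Of the 8 epithelial markers, of which 4 are keratins, KRT19 passed the test in SW480, where 6.73% of all genes did. KRT19 rose by 0.70 ± 0.16 on the log2 scale (limma adjusted p = 0.0226). KRT20 was between 1.73 and 11.2 in SCR libraries and between 20.7 and 94.6 in silenced ones. It met the filter only through the silenced libraries, the group where it is high, so it is not counted as passing and no fold is given. The other 6, KRT8 and KRT18 among them, did not pass, and in HT29 KRT20 was at -0.16. The part of these markers in the change of the members was not tested.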

How the data were processed

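RNA was captured with an exome enrichment kit, and the authors deposited signal values per gene and library, which are read counts from kallisto (version 0.44.0, hg38) normalized with DESeq2 (version 1.24.0), per the labels and the study's methods. The kallisto index is not given in the sources used here. The values are not whole numbers, so no count test was run. Rows with the same gene name were added up.

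Values were analysed as log2(value + 1) with limma 3.58.1 (R 4.3.3), with a mean-variance trend, over genes reaching 10 in 4 or more HT29 or 6 or more SW480 libraries. Each line was fitted alone, pooled or as 3 groups, and all 20 libraries for the interaction. p values were adjusted by Benjamini-Hochberg over all genes tested. Single members were compared by 2-sided exact permutation tests. Library depth, estimated from the commonest small value taken as 1 read, was 13500000 to 27500000 reads. This value is rough, so no interval was derived from it.

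The members, gene lists and tests were chosen with earlier results of these data known. Named beside the members are POLR1D, from each list the genes that passed (at most 4) or else the 2 with the smallest p, and the 5 genes most correlated with TNFRSF10B and PMAIP1. A few genes that this rule or the lists name are not reported here. Tested on simulated data with 200 changed genes in 5 simulations, the fit found 52.2% of those set to a log2 fold change of 1 in HT29 (13274 genes) and 60.6% in SW480 (15019 genes), with 4.95% and 4.75% wrong calls. Simulated noise was drawn independently for each gene and library. It lacks the shared differences between the real libraries, so these shares need not hold for the real data. Alternatives changed the pseudocount, filter, scaling, spread model, libraries, siRNA and covariates. No replicates were identical. Positions are from GENCODE and promoters from RefSeq.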

Additional observations from a re-analysis of the deposited data

Results flagged for a closer look

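In 4 of 44 groups of 4 to 6 libraries, 1 library lay far from the rest by Dixon's test, which chance gives in about 1 of 20 groups. PMAIP1 was at 105.41 in HT29 SCR 1, with the other SCR libraries at 33.2 to 39.5. BCL2L11 was at 161.36 in HT29 siPOLR1D2 1, with the other silenced libraries at 100 to 110. BID was at 326.7 in SW480 SCR 1, with the others at 170 to 218. XIAP was at 3139 in the same SW480 SCR 1 library, with the others at 3905 to 4354.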

How the results depend on the processing

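Of 1589 values of single members under alternatives, 1493 kept direction and side of the threshold, 30 lost it, 20 gained it and 46 turned direction. Whether replicate numbers pair the libraries could not be settled. Same-numbered libraries had a mean correlation of deviations of -0.04 in HT29 and -0.02 in SW480, with 0 of 6 and 2 of 9 pairs above 0.1. Single SW480 pairs ran from -0.595 to 0.391. Deviations were taken within groups of as few as 2 libraries, and only equal numbers were matched. No silenced library shares the numbers of SCR 3 and 4 in HT29 or SCR 4 to 6 in SW480. A replicate block therefore drops these libraries from the comparison. HT29 SCR 3 and 4, at 2730 and 2957 for TNFRSF10B, lay among the silenced libraries, and the block leaves SCR 1 and 2. With a replicate block the count was 1 in HT29 (TNFRSF10B, -1.31, limma adjusted p = 0.0288), against 0, and 0 in SW480, against 2 (TNFRSF10B -1.24 and BCL2L11 1.13, further from 0 than without it, limma adjusted p = 0.109 for both). It was 0 with siPOLR1D2 in SW480 (TNFRSF10B -1.24 and BCL2L11 1.06, limma adjusted p = 0.107 and 0.118). TNFRSF10B with siPOLR1D3 was also lost (-1.24, limma adjusted p = 0.0524). The block turned TNFRSF10A with siPOLR1D2 (-0.14), BAX with siPOLR1D3 (0.012) and the difference between lines for TNFRSF10B (0.069).

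The SW480 count was 5 with both lines in one fit, 5 with the side of the first component as a covariate, 5 within the second side, 0 within the first (3 against 2 libraries), 0 with siPOLR1D2 alone, and 6 by exact permutation without adjustment, which gave 2 in HT29. Over all genes the calls went from 1011 in SW480 to 1203 of 16203 with both lines in one fit, 666 with no filter, 574 with siPOLR1D2 alone, 1993 with the covariate, 1939 within the second side, 0 within the first and 0 with the replicate block, which gave 735 in HT29 against 0. Both lines in one fit gave 11 in HT29. With siPOLR1D2 the member count was 0 against SCR 1 to 3 only, and with siPOLR1D3 it was 7 against SCR 4 to 6 only. The share of all genes called is not given for these settings or with 1 library left out, so these counts are no result about the members. Leaving out 1 library gave 2 to 3 members in SW480, 0 in HT29, 0 to 2 with siPOLR1D2 and 0 to 4 with siPOLR1D3. TNFRSF10B and BCL2L11 passed in all 12 of these SW480 fits, at -1.10 to -0.85 and 0.85 to 1.03.

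Rescaling to the upper quartile moved the median of all genes by 0.093 in HT29 and 0.11 in SW480 (0.119 and 0.0686 for siPOLR1D2 and siPOLR1D3 in HT29, 0.035 and 0.183 in SW480). With those shifts left in, it turned BAX in HT29 (0.031 pooled, 0.073 with siPOLR1D2), BID (0.010) and BAX with siPOLR1D3 (0.17) in SW480, and between the siRNAs BCL2L1 and MCL1 in HT29 (-0.035 and -0.027) and TNFRSF10B, BCL2L1 and XIAP in SW480 (0.14, 0.073 and 0.0032). It left TNFRSF10B with siPOLR1D3 in SW480 at -0.85 (limma adjusted p = 0.0663). In SW480 siPOLR1D2 alone turned TNFRSF10A (0.084), BAK1 (0.21) and BID (0.18), siPOLR1D3 alone BAX (-0.00091), the first side BAK1 and BID (0.16 and 0.16), and SCR 1 to 3 only TNFRSF10A with siPOLR1D2 (-0.14).

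Each siRNA had only 2 libraries in HT29, and leaving out 1 library turned the direction of some values there and in SW480. In HT29 with siPOLR1D2 these were BCL2L1 (-0.079 to 0.20), BAX (-0.18 to 0.088), BAK1 (-0.52 to 0.15) and XIAP (-0.14 to 0.24), and with siPOLR1D3 BID (-0.027 to 0.22). Between the siRNAs in HT29 they were PMAIP1 (-0.093 to 0.49), BCL2L11 (-0.62 to 0.025), BCL2L1 (-0.13 to 0.15), MCL1 (-0.069 to 0.11), BAX (-0.17 to 0.096), BID (-0.44 to 0.085) and XIAP (-0.13 to 0.25). In SW480 they were BID (-0.21 to 0.033), TNFRSF10A with siPOLR1D2 (-0.042 to 0.22), BAX with siPOLR1D3 (-0.080 to 0.050) and, between the siRNAs, TNFRSF10B (-0.20 to 0.17) and BCL2L11 (-0.0054 to 0.30). The cause of these changes was not tested. How many reads stand behind each gene is unknown, which limits low genes such as PMAIP1 in HT29 most.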
